A study of Mus musculus with 155 samples.

Results

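Expression of 5 genes of myelin lipid and sterol metabolism, Ugt8a, Dhcr7, Insig1, Srebf2 and Abca2, was followed across single mouse brain cells of 5 sorted populations. They were chosen by name, and all 5 were found among the 3422 genes of the deposited table. Reporter-positive cells of mice aged 8 to 10 weeks were sorted singly and sequenced by SMART-Seq2, which reads whole transcripts. The tissue was subventricular zone, where neuroblasts are born in the adult, and corpus callosum, a large myelinated tract. NB (37 cells, gated as neuroblasts by Gad67-GFP, strain CB6-Tg(Gad1-EGFP)G42Zjh/J) and O (29 cells, gated by Olig2-Tomato, strain Olig2-tdTomato TH39Gsat/Mmcd) came from healthy mice that were not injected. NBL (27 cells, GFP gate and strain as NB), OL (22 cells, Tomato gate and strain as O) and OligNBL (40 cells positive for both reporters, from the cross of both strains) came from mice at 6 days after LPC, a lysolipid that destroys myelin, had been injected. The reporters mark cells by the activity of the Gad1 and Olig2 genes, so a population is a gate and not a lineage. Below, the GFP gate means NB and NBL and the Tomato gate O and OL, though OligNBL cells carry both reporters. Each condition had 5 mice, but no label ties a cell to its mouse. Each population is therefore 1 sample, no p-value was computed, and every difference below is a description without a replicate check. Between gates the strains differed too, so gate and strain cannot be told apart.

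Myelin is unusually rich in lipid, above all cholesterol and galactolipids, and the cells that make it build most of both themselves. Ugt8a encodes the enzyme that joins galactose to ceramide to form galactosylceramide, the typical glycolipid of myelin. Dhcr7 encodes 7-dehydrocholesterol reductase, the enzyme that completes one branch of cholesterol synthesis. Srebf2 encodes SREBP2, the transcription factor that drives sterol synthesis when sterol is scarce, and Insig1 encodes the endoplasmic reticulum protein that holds SREBP and its escort back when sterol is plentiful and that is itself an SREBP target. Abca2 encodes an ABC transporter of endosomal and lysosomal membranes that is abundant in oligodendrocytes and acts in sterol and sphingolipid handling.

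The genes lie apart in the genome (GRCm38, GENCODE vM21). Ugt8a is on the minus strand of chromosome 3 (125865271 to 125938619). Dhcr7 is on chromosome 7 (143823145 to 143848410), Insig1 on chromosome 5 (28071363 to 28078662), Srebf2 on chromosome 15 (82147181 to 82205379) and Abca2 on chromosome 2 (25428703 to 25448540), each on the plus strand. All 5 are protein coding, and no exon of another annotated gene overlaps an exon of any of them.

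The promoters of the 3 sterol genes are shown because Insig1 and Srebf2 were found together in some double-reporter cells. Of the 40 double-reporter cells 14 had both, and 10 of these 14 formed a run of neighboring cells, where Dhcr7 was not high. Shared regulation of these genes was not tested. Sequences are from RefSeq (GRCm38.p6), 250 bases before to 50 bases after an annotated start, 5′ to 3′ on the strand of the gene. Capitals mark matches, on either strand, to the CCAAT box (CCAAT), the E box (CACGTG) and ATCACCCCA, the opening letters of the sterol regulatory element of the LDL receptor gene. Insig1 is at chr5:28071162-28071461, Srebf2 at chr15:82147019-82147318 and Dhcr7 at chr7:143829964-143830263, all on the plus strand. Of the 3 starts listed for Dhcr7 the third is printed, chosen after the matches were seen.
Insig1: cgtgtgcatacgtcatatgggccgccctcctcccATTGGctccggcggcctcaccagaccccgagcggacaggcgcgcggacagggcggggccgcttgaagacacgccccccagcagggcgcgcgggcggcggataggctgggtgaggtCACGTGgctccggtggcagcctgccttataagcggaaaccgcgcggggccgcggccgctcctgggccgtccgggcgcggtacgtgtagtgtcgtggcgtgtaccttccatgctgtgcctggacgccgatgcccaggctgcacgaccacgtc
Srebf2: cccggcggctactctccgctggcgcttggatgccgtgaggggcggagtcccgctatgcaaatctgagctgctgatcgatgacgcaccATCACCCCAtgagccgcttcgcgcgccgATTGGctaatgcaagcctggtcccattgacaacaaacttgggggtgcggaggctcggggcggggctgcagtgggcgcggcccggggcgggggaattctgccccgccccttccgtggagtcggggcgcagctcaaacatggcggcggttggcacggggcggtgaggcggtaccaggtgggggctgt
Dhcr7: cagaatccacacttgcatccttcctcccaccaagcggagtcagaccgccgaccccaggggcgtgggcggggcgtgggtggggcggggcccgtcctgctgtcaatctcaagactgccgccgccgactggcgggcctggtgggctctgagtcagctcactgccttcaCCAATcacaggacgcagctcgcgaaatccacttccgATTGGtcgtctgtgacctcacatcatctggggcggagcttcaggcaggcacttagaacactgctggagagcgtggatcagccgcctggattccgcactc

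Insig1 held 1 CCAAT match and 1 E box, Srebf2 held 1 CCAAT match and 1 ATCACCCCA, and this start of Dhcr7 held 2 CCAAT matches. Counted from the start, the Srebf2 match to ATCACCCCA began at position -163 and its CCAAT match at -135. Another start of Dhcr7 (chr7:143823149-143823448) held 1 E box, and the remaining start (chr7:143822917-143823216) held no match. The single promoters listed for Ugt8a (chr3:125938603-125938902) and Abca2 (chr2:25428349-25428648) held none of these letters. Among all 32851 promoters of the table, 37.4% held CCAAT, 7.15% held CACGTG and 0.280% held ATCACCCCA. The sterol regulatory element motif planned beforehand, TCACNCCAC, was in 1.24% of promoters and in none of those of the 5 genes. In Srebf2 the letter after ATCACCCCA is T, where TCACNCCAC needs C. ATCACCCCA was added after the sequences had been read. A match describes letters only.

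A gene's level is the mean over cells of log2(value + 1), given with the SD between cells. Values are the deposited normalized estimated counts, whose distribution was made nearly the same in every cell, so column totals lay between 5155899 and 5161091 and say nothing of sequencing depth. Levels are not per length and are compared between populations and not between genes. An exact 0 is only a listing: Actg1 was listed at 0 in 34 cells and Gapdh in 65, though every cell uses both genes. A gene is called listed above 0 in a cell where its value exceeded the lowest value of that cell, and cells in which it ranked within the top 500 genes are counted as well. The median number of genes listed above 0 per cell was 1114 in NB, 1161 in NBL, 1397 in OligNBL, 950.5 in OL and 1187 in O. Intervals are exact Clopper-Pearson 95% intervals over cells. For a count of 0 no interval is given; the limit printed is 3 cells of the total. Intervals and limits cover counting error only, and they are too narrow where cells are alike.

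Cells with neighboring numbers in their titles were alike. Each population lay wholly or mostly in its own run of these numbers. Run and population therefore largely cannot be told apart in any comparison. This includes the comparisons of lesioned with healthy cells within a gate. Within populations the mean correlation was 0.49 to 0.56 for cells at most 4 numbers apart and 0.19 to 0.35 where the gap was 17 or more. Average linkage at a correlation of 0.4, on all genes other than the lipid genes, gave 20 sets. Splitting the sets by population and keeping groups of 3 or more cells left 21 parts with 149 cells, and part means are given below. In 4 sets, cells of different populations were joined (18 NB, 5 NBL, 2 OligNBL, 3 OL and 10 O cells). The labels place OligNBL in demyelinated mice, whereas the titles of all 40 carry the control mark; the lesion state of the labels is used.

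The gates were checked on marker genes. Of 14 measured mature oligodendrocyte markers, all 14 were listed above 0 in some OL and some O cells. Their summed level per cell ran from 39.2 to 169 in OL and from 68.5 to 131.1 in O, against 0 to 15.6 in NB, 0 to 15.6 in NBL and 0 to 8.30 in OligNBL. Of 13 measured neuroblast markers, the summed level had a median of 35.3 in NB, 39.3 in NBL, 35.9 in OligNBL, 10.2 in OL and 9.38 in O. Of the 6 measured oligodendrocyte progenitor markers, the median sum was 0 in NB, 2.72 in NBL, 11.4 in OligNBL, 4.35 in OL and 6.72 in O. The 3 measured newly formed oligodendrocyte markers had a median sum of 8.45 in OL and 9.10 in O. It was 4.59 in NB, 6.86 in NBL and, lowest, 2.93 in OligNBL. The table held no astrocyte, microglia or ependymal marker of the lists used. Of the endothelial and mural markers it held only Pecam1, which was listed in all populations with median levels from 5.52 to 10.5, and of the mature neuron markers it held 2, whose summed level had a median from 0 in NB to 7.29 in O.

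**Figure D1:**
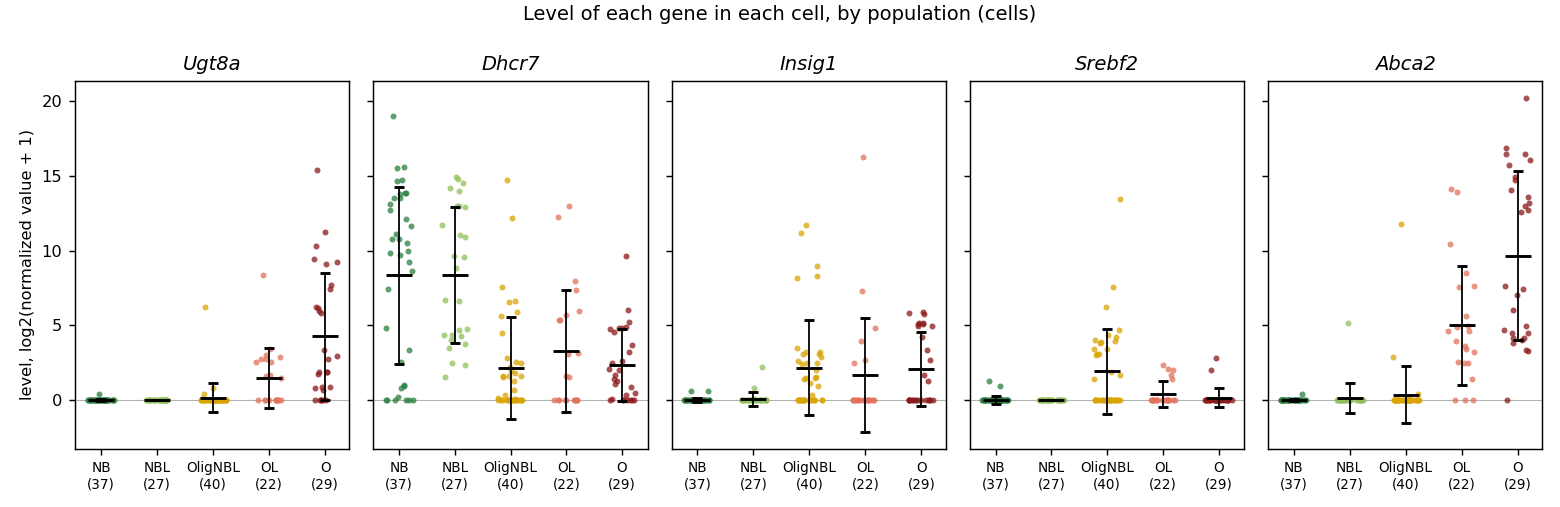
Level of each gene in each cell (points; vertical axis, log2 of the normalized value + 1) in the 5 populations, with the number of cells in brackets; bars are the mean and the SD between cells. Abca2 has its highest means in O and OL and Ugt8a in O, Dhcr7 is high in NB and NBL, and Srebf2 is above 0 mainly in OligNBL.

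Ugt8a, the galactolipid enzyme, was highest in O and OL and low in OligNBL, whose cells carry Tomato too. In O its value ran from 0 over a median of 5.67 to 41904, with a second highest cell at 2401. In OL it ran from 0 over a median of 0.895 to 329, and the second highest cell was at 9.62. It was thus listed above 0 in 23 of 29 O cells (79.3%) and 11 of 22 OL cells (50%), and the higher values lay in O. In OligNBL it was listed above 0 in 4 of 40 cells, with 72.8 in the highest cell and 0.779 in the next. In NB 1 cell of 37 was listed above 0, at 0.325, and in NBL all 27 cells were listed at 0. It ranked within the top 500 genes in 12 O cells (41.4%, interval 23.5% to 61.1%), 1 OL cell and 1 OligNBL cell. No NB or NBL cell did so, which allows up to 8.11% of 37 NB and 11.1% of 27 NBL cells. The order of the levels was O (4.27 ± 4.23, n = 29 cells), OL (1.51 ± 2.02, n = 22), OligNBL (0.19 ± 0.99, n = 40), NB (0.01 ± 0.07, n = 37) and NBL (0, n = 27). No neighbors in this order differed by more than the larger SD.

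Abca2, the lipid transporter, was likewise highest in O and OL, with higher shares of cells there. In O it ran from 0 over a median of 197.7 to 1192295, and in that highest cell it was the highest gene of the cell. In OL it ran from 0 over a median of 19.6 to 17336. It was listed above 0 in 28 of 29 O and 19 of 22 OL cells, and the ranges of both populations overlapped widely. In the other populations it was listed in 1 of 37 NB cells (0.373), 1 of 27 NBL cells (35.7) and 3 of 40 OligNBL cells. The highest of these OligNBL cells was at 3466 and the next at 6.37. It ranked within the top 500 in 26 O cells (89.7%, interval 72.6% to 97.8%), 12 OL cells (54.5%, interval 32.2% to 75.6%), 1 OligNBL and 1 NBL cell, and 0 of 37 NB cells. The levels were 9.65 ± 5.63 in O, 5.01 ± 3.98 in OL, 0.38 ± 1.90 in OligNBL, 0.19 ± 1.00 in NBL and 0.01 ± 0.08 in NB. The step from OL to OligNBL, 4.63, exceeded the larger SD, whereas the step from O to OL, 4.64, did not exceed the SD of O.

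Dhcr7, the sterol reductase, was high in NB and NBL. Its value ran from 0 over a median of 985 to 519600 in NB, and from 1.97 over a median of 451 to 29968 in NBL. The medians elsewhere were 0.448 in OligNBL (highest cell 26525), 2.0 in OL (highest 7958) and 2.17 in O (highest 779). It was the only one of the 5 genes listed above 0 in every cell of a population, all 27 NBL cells, and it was listed in 31 of 37 NB cells, 22 of 29 O cells, 24 of 40 OligNBL cells and 12 of 22 OL cells. It ranked within the top 500 in 67.6% of NB cells (interval 50.2% to 82%), 85.2% of NBL (66.3% to 95.8%), 20% of OligNBL (9.05% to 35.6%), 36.4% of OL (17.2% to 59.3%) and, in O, 31% (15.3% to 50.8%). The levels were 8.38 ± 4.55 in NBL, 8.35 ± 5.91 in NB, 3.29 ± 4.07 in OL, 2.36 ± 2.42 in O and 2.17 ± 3.41 in OligNBL, and no neighbors in this order differed by more than the larger SD.

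Insig1, the sterol sensor, was rare in NB and NBL and present in the other 3 populations. In OligNBL it ran from 0 over a median of 1.45 to 3271, in OL from 0 over a median of 0 to 75362, and in O from 0 over a median of 0 to 57.5. The second highest OL cell was at 160, so the top value of OL belonged to 1 cell. It was listed above 0 in 23 of 40 OligNBL, 14 of 29 O and 6 of 22 OL cells, but in 3 of 27 NBL (at most 3.69) and 2 of 37 NB cells (at most 0.573). The levels were 2.19 ± 3.14 in OligNBL, 2.11 ± 2.45 in O, 1.71 ± 3.81 in OL, 0.12 ± 0.45 in NBL and 0.04 ± 0.15 in NB, and no neighbors differed by more than the larger SD. Among OligNBL cells, those with Insig1 listed above 0 had a median of 1547 genes listed and the others 1236; the part of this in the result was not tested.

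Srebf2, the sterol regulator, was the rarest of the 5, listed above 0 in 27 cells in all, and 18 of these were OligNBL cells. In OligNBL it ran from 0 over a median of 0 to 11063, with 191 in the next cell. It was listed in 5 of 22 OL cells (at most 4.26), 2 of 29 O cells (at most 6.08) and 2 of 37 NB cells (at most 1.48), and all 27 NBL cells were listed at 0. It ranked within the top 500 in 10 OligNBL cells (25%, interval 12.7% to 41.2%) and in no cell of the other populations, which allows up to 8.11% of NB, 11.1% of NBL, 13.6% of OL and 10.3% of O cells. The levels were 1.93 ± 2.81 in OligNBL, 0.44 ± 0.84 in OL, 0.17 ± 0.63 in O, 0.06 ± 0.26 in NB and 0 in NBL, and no neighbors differed by more than the larger SD. OligNBL cells with Srebf2 listed above 0 had a median of 1524.5 genes listed and the others 1335; the part of this in the result was not tested.

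**Figure D2:**
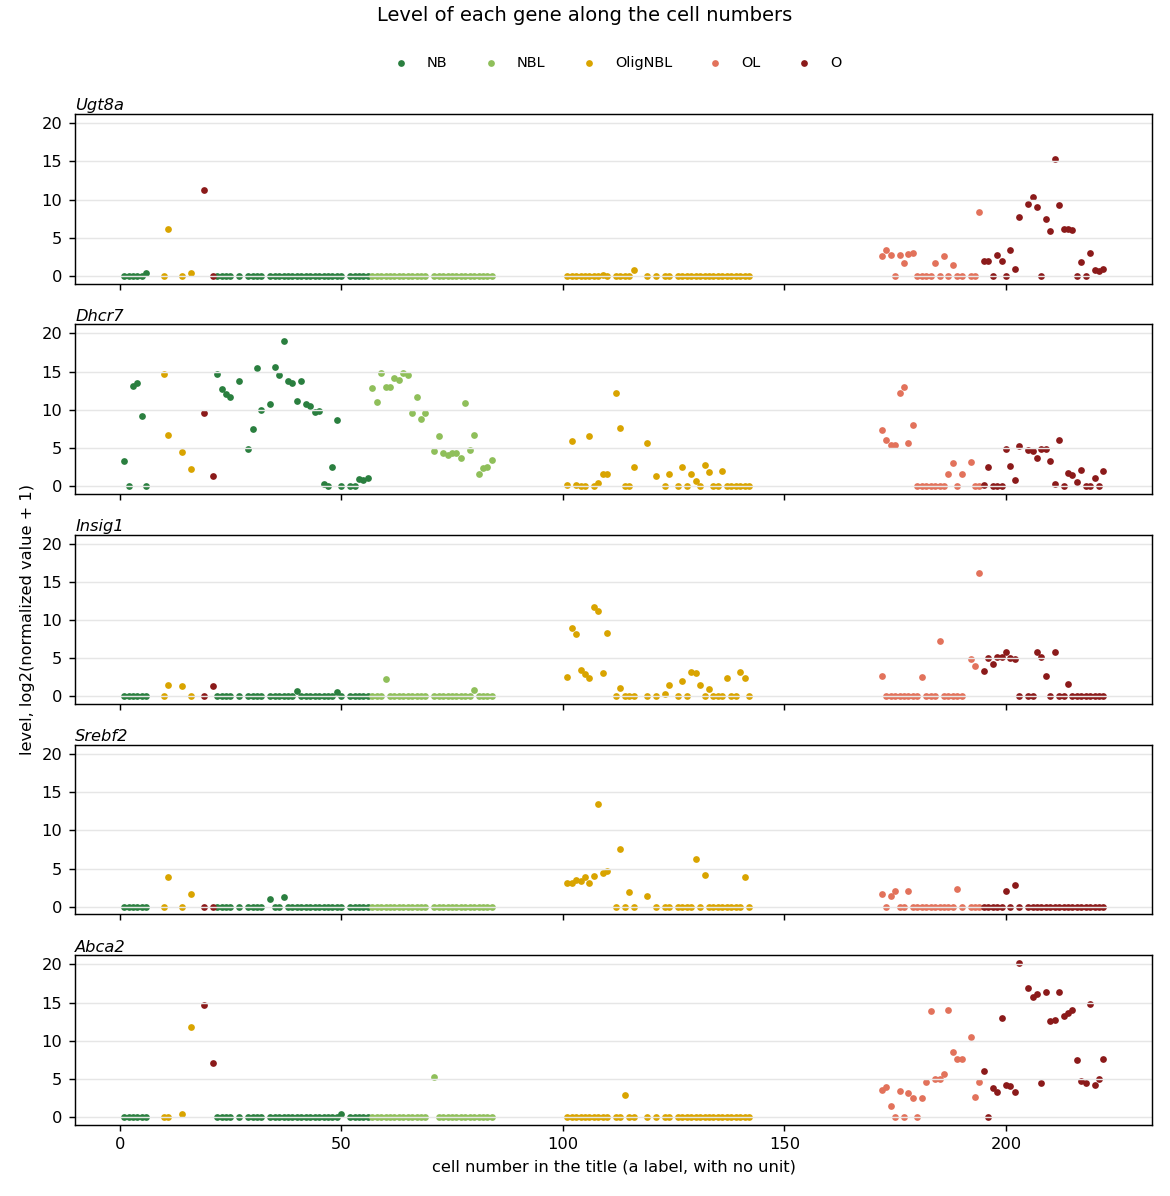
Level of each gene (vertical axis, log2 of the normalized value + 1) against the number in the cell's title (horizontal axis), 1 point per cell, colored by population. Values come in blocks of neighboring cells: Dhcr7 is at or near 0 in most of the last NB cells up to cell 56, Insig1 and Srebf2 are high together in a run of 10 OligNBL cells, and Ugt8a and Abca2 peak together in 10 O cells.

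Levels differed between parts of the same population. In NB, Dhcr7 had part means of 12.93 ± 2.87 (11 cells, numbers 35 to 45), 12.15 ± 0.54 (3 cells, 23 to 25), 10.37 ± 3.91 (6 cells, 27 to 34), 7.85 ± 5.98 (5 cells, 1 to 5) and 2.62 ± 4.73 (11 cells, 22 to 56). In that last part, cells 22 and 49 had high Dhcr7, at levels of 14.70 and 8.60, and the other cells were at 2.55 or below. In NBL the part means were 14.36 ± 0.36 (4 cells, 62 to 65), 12.33 ± 1.10 (3 cells, 58 to 61), 6.53 ± 2.87 (11 cells, 66 to 77) and 4.61 ± 3.26 (7 cells, 78 to 84). NB and NBL thus both held parts with high and parts with low Dhcr7. The median summed level of neuroblast markers had no common order with Dhcr7: in NB it was 48.9 in the part with the highest Dhcr7 and 24.5 in the lowest, and in NBL it was 50.2 in the lowest part and 35.3 in the highest. The NB parts with Dhcr7 at 12.15, 10.37 and 7.85 had sums of 24.5, 31.4 and 45.1, so NB had no steady order either.

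In OligNBL, 1 part of 10 cells had the highest means of both sterol regulators. All 10 cells had Insig1 and Srebf2 listed above 0, with part means of 6.28 ± 3.73 for Insig1 and 4.66 ± 3.13 for Srebf2. In the other 4 parts Insig1 had means from 0 to 1.16 and Srebf2 from 0.48 to 2.87. Dhcr7 was at 1.64 ± 2.51 in that part of 10 cells. It was highest in another part, of 4 cells, at 10.28 ± 3.81, and at 0.24 to 1.88 in the remaining ones. These 4 cells also had a median summed level of progenitor markers of 44.6, against 4.82 to 16 in the other parts. Genes listed per cell had a median of 1634 in the part of 10 cells and 1189 to 1490.5 in the others; the part of this in the result was not tested. Over all 40 cells, 14 had both Insig1 and Srebf2, 9 Insig1 alone, 4 Srebf2 alone and 13 neither, with a Pearson correlation of levels of 0.63 across cells, which share their part and the number of genes listed.

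In O, Ugt8a and Abca2 peaked in the same part. All 10 cells of the largest part had both genes, with Ugt8a at 8.36 ± 2.93 and Abca2 at 15.16 ± 2.41. The 9 O cells that share a set with 3 OL cells had Ugt8a at 1.41 ± 1.25 and Abca2 at 4.68 ± 3.49, and the remaining part of 9 cells had 1.80 ± 2.90 and 7.93 ± 4.49. Insig1 lay elsewhere: it was listed in all 9 cells of the part that shares a set with OL, at 4.87 ± 0.69, but in 3 of the 10 and 2 of the 9 cells of the other parts, at 1.03 ± 1.95 and 0.80 ± 1.94. The summed level of mature oligodendrocyte markers had medians of 102.7, 95.4 and 88.6 in these parts, in the order in which they were introduced, and genes listed had medians of 1179, 1010 and 1279; the part of these in the result was not tested. Across the 29 O cells the correlation of Ugt8a with Abca2 was 0.77, and that of Insig1 with Abca2 was -0.37.

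In OL the genes sorted differently. Dhcr7 was listed in all 8 cells of 1 part, at 7.87 ± 3.07, and at 0 to 1.05 in the other 3 parts. Ugt8a was listed in 7 of these 8 cells, at 2.39 ± 1.09. Abca2 was at 2.28 ± 1.6 there and highest, at 8.40 ± 3.69, in another part of 8 cells, where Ugt8a was at 0.71 ± 1.03. Insig1 was highest, at 8.34 ± 6.83, in the 3 cells that share a set with 9 O cells. The correlation of Ugt8a with Abca2 across the 22 OL cells was -0.23, against 0.77 in O; the difference was not tested.

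**Figure D3:**
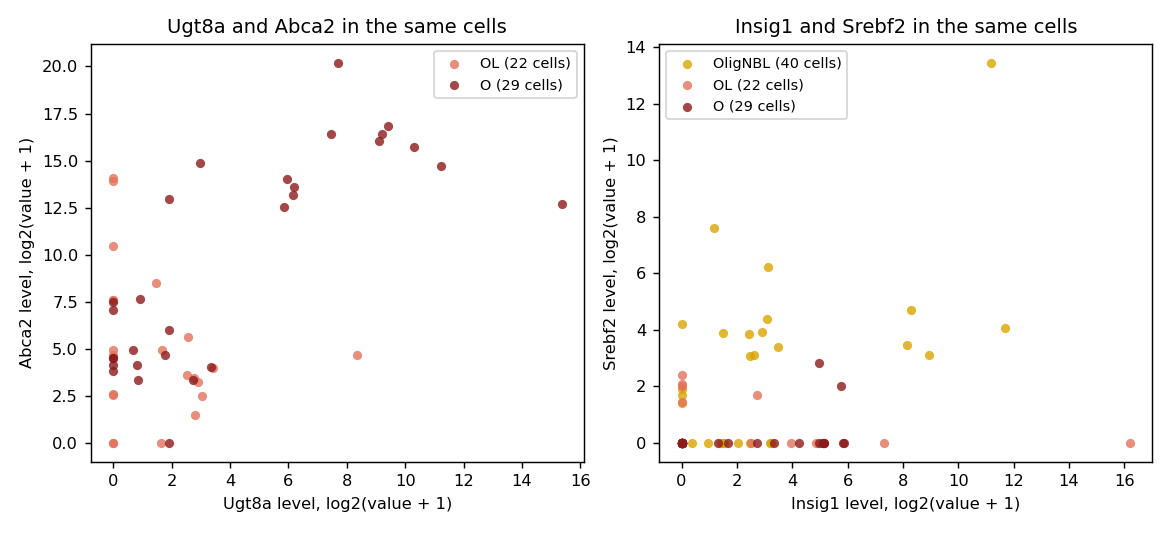
Levels of 2 genes in the same cells (log2 of the normalized value + 1 on both axes), 1 point per cell, for Ugt8a and Abca2 in OL and O (left) and for Insig1 and Srebf2 in OligNBL, OL and O (right). In O the points lie along a rising band, and 14 of 40 OligNBL cells have both Insig1 and Srebf2 above 0.

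The 5 genes were also counted per cell. Of 37 NB cells, 29 had 1 of the 5 genes listed above 0, 4 had 2 and 4 had none, and of 27 NBL cells 23 had 1 and 4 had 2. In O, 15 of 29 cells had 3 of the genes, 7 had 4 and 1 had all 5. In OL 1 of 22 had none, 2 had 1, 10 had 2, 6 had 3, 2 had 4 and 1 had all 5. OligNBL had 7 cells with none, 10 with 1, 10 with 2, 10 with 3 and 3 with 4 of the genes. Abca2 and Ugt8a were both listed in 22 O and 10 OL cells, and Abca2 and Dhcr7 in 21 O and 10 OL cells.

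**Figure D4:**
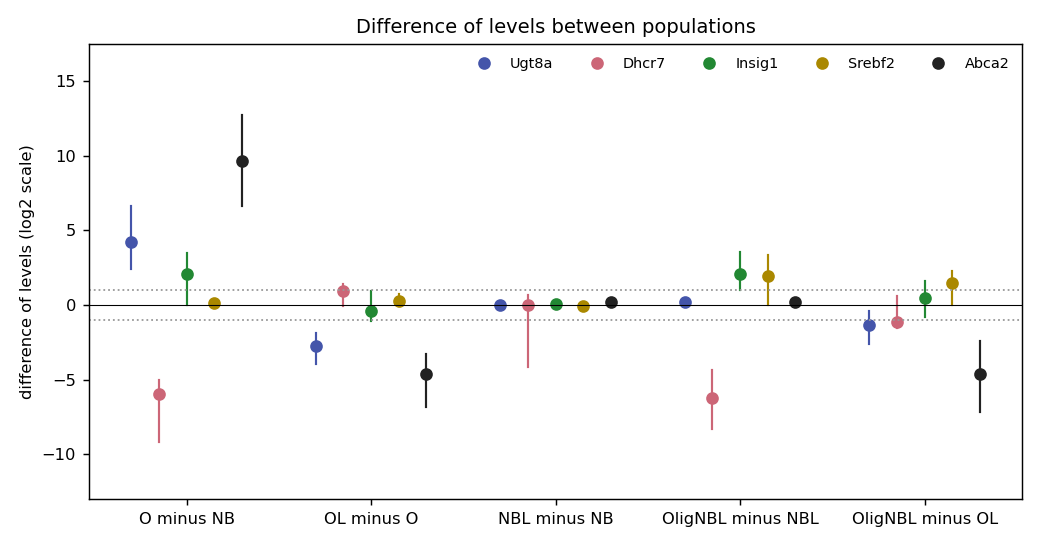
Difference of mean levels (vertical axis, log2 scale) for the 5 genes in the 5 comparisons; points are the values reported and lines span the lowest and highest value over all processing alternatives. Dotted lines mark differences of 1 and -1. Abca2 and Ugt8a lie above 0 in O minus NB and below 0 in OL minus O throughout, while the line of Dhcr7 in OligNBL minus OL crosses 0.

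The healthy populations, O against NB, ask how oligodendroglial and neuroblast gates differ without a lesion. Abca2 was higher in O by 9.64, Ugt8a by 4.26 and Insig1 by 2.08, Dhcr7 was lower by a difference of -5.99, and Srebf2 differed by 0.11. With a difference of 1 as the threshold, 3 of the 5 genes were higher and 1 was lower, where 19.4% of all 3422 genes were higher and 20.7% lower. Abca2 ranked 7 from the top of all genes and Dhcr7 ranked 27 from the bottom. The part means of Ugt8a, Abca2 and Insig1 did not overlap between the populations (3 of 5 genes, against 21.8% of all genes, with the parts made from these same cells). The Insig1 difference did not hold the threshold with a pseudocount of 10 (0.83) or without the sets that join populations (0.88), and its medians were both 0. Without those sets the Dhcr7 difference was -9.20.

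Lesioned and healthy cells of the Tomato gate were compared as OL minus O. Both genes with their highest levels in O and OL were lower in OL than in O. The difference was -4.64 for Abca2 and -2.76 for Ugt8a, neither larger than the SD of O. Dhcr7 (0.93), Srebf2 (0.27) and Insig1 (-0.40) stayed within 1. Thus 0 of 5 were higher and 2 were lower past the threshold, where 15.9% of all genes were higher and 15.7% lower. No gene of the 5 had part means apart (10.5% of all genes). The highest part of OL for Abca2, 8.40, lay above the lowest parts of O, 4.68 and 7.93. Summed mature oligodendrocyte markers had a median of 126.6 in OL and 95.5 in O, the opposite order to Ugt8a and Abca2, and genes listed had a median of 950.5 in OL and 1187 in O; their part in the result was not tested. Without the sets that join populations the differences were -6.86 for Abca2, -3.95 for Ugt8a and 1.38 for Dhcr7.

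Those of the GFP gate were compared as NBL minus NB. None of the 5 genes passed a difference of 1: Dhcr7 differed by 0.03, Insig1 by 0.08, Abca2 by 0.18, Ugt8a by -0.01 and Srebf2 by -0.06. Among all genes 17.4% were higher and 17.3% lower, and part means lay apart for 0 of the 5 and for 3.24% of all genes. The near-equal Dhcr7 means rest on the cells included. The 11 NB cells of the part with the lowest Dhcr7 mean share a set with 2 NBL cells and 6 further NB cells share another with 3 NBL cells, and without all sets that join populations the Dhcr7 difference was -4.13. With medians over cells it was -1.13.

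Cells carrying both reporters were set against lesioned cells of the GFP gate, OligNBL minus NBL, both lesioned per the labels. NBL came from the GFP strain and not from the cross, so a lack of Tomato says nothing of Olig2 activity in its cells. Dhcr7 was lower in OligNBL by a difference of -6.21, larger than either SD, and Insig1 (2.08) and Srebf2 (1.93) were higher, smaller than the SD of OligNBL. Ugt8a (0.19) and Abca2 (0.18) were within 1. So 2 of 5 were higher and 1 was lower, where 25.7% of all genes were higher and 20.3% lower. The part means of Srebf2 lay apart (1 of 5, against 10.3% of all genes), with all NBL cells listed at 0. With a pseudocount of 10 the Insig1 difference was 0.997 and that of Srebf2 0.82, and the medians of Srebf2 were both 0.

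They were likewise set against lesioned Tomato cells, OligNBL minus OL. Abca2 was lower in OligNBL by a difference of -4.63, larger than either SD, and its part means lay apart (1 of 5 genes, against 13.5% of all genes). Ugt8a (-1.32) and Dhcr7 (-1.12) were lower and Srebf2 (1.5) higher, each smaller than the larger SD, and Insig1 differed by 0.49. That makes 1 gene higher and 3 lower past 1, where 27.3% of all genes were higher and 21.1% lower. The Dhcr7 difference turned to 0.58 with parts weighted equally. It also left the threshold without the highest cell of each population (-0.99) and with cells of at least 1000 genes (-0.69). A pseudocount of 10 (-0.74) and values scaled to a total of 1000000 (-0.87) did the same. Column totals were already nearly equal, so that scaling acts like a larger pseudocount and does not test library size. The differences of Ugt8a and Srebf2 left the threshold with a pseudocount of 10 (-0.41 and 0.73) and with medians (-0.74 and 0). They also left it with the scaled values (-0.60 and 0.94). Insig1 ran from -0.78 with parts weighted equally to 1.61 without the sets that join populations.

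The rest of lipid metabolism was read from 6 lists of genes, of which the table holds 38, the 5 described here among them. Of the cholesterol synthesis list, Dhcr7 and Sc5d are described. Sc5d, the desaturase that makes the substrate of Dhcr7, was listed in 16 of 27 NBL cells (2.59 ± 2.69) and in 1 of 37 NB cells. It was at 0.31 ± 0.90 in OligNBL, 0.34 ± 0.91 in OL and 0.18 ± 0.54 in O.

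Of 18 sterol sensing genes 7 were measured. Insig2, of the same gene family as Insig1, was listed in 15 of 40 OligNBL cells (1.97 ± 3.33) and 2 NB cells. It was listed at 0 in all NBL, OL and O cells. Nr1h2, which encodes the oxysterol receptor LXR beta, was at 2.59 ± 2.91 in OligNBL (28 of 40 cells) and at most 0.27 elsewhere. With Insig1 and Srebf2 these made 4 of 7 genes higher in OligNBL than in NBL (median 1.93, all genes 0.03), beside 25.7% of all genes. Without Insig1 and Srebf2 the count was 2 of 5 and the median 0.34. The list had 1 gene lower, beside 20.3% of all genes, the sterol esterifying enzyme gene Soat1 (0.59 ± 0.89 against 2.88 ± 4.39). In OligNBL against OL 4 of 7 were higher and 1, Erlin2, was lower (0.02 ± 0.09 against 3.20 ± 4.17), beside 27.3% and 21.1% of all genes, with a median of 1.29 (all genes 0.13).

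The other lists held genes that were high in different populations. Of 8 measured genes of fatty acid synthesis and elongation, 4 were higher in OL than in O and 1 was lower, beside 15.9% and 15.7% of all genes, with a median of 0.79 (all genes -0.10). Tecr, an enzyme of very long chain fatty acid elongation, was at 9.98 ± 3.86 in OL and 8.10 ± 4.09 in O. The desaturase Scd2 was at 3.67 ± 3.78 against 0.75 ± 1.36, the fatty acid synthase Fasn at 2.52 ± 3.77 against 0.21 ± 0.90, and the carboxylase Acaca was lower, at 0.28 ± 1.30 against 3.87 ± 3.91. Acly, which supplies acetyl-CoA for lipid synthesis, was at 4.04 ± 4.95 in OligNBL (29 of 40 cells) and at most 0.54 elsewhere. Of the 13 measured lipid transport genes, Apod was at 6.14 ± 3.95 in OL, 4.29 ± 3.98 in O and at most 0.23 in the other populations, and Npc1, the lysosomal cholesterol exporter, was at 4.18 ± 4.66 in OligNBL and at most 1.54 elsewhere. Lysosomal Npc2 was at 4.39 ± 5.32 in O, 2.13 ± 3.60 in OL and at most 0.29 elsewhere. The peroxisomal enzyme Hsd17b4 was listed in 15 of 22 OL cells (4.88 ± 5.18), in 1 O, 1 NB and 1 NBL cell and in no OligNBL cell, and Scp2, a sterol carrier, in 32 of 40 OligNBL cells (4.84 ± 4.63) and in at most 3 cells of any other population. Of 3 measured sphingolipid genes, Ugt8a was the one highest in O and OL: the ceramide synthase Cers2 was highest in NBL (3.95 ± 4.82) and OligNBL (3.22 ± 3.45), and Psap, the precursor of the saposins, in NB (3.41 ± 3.74).

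**Figure D5:**
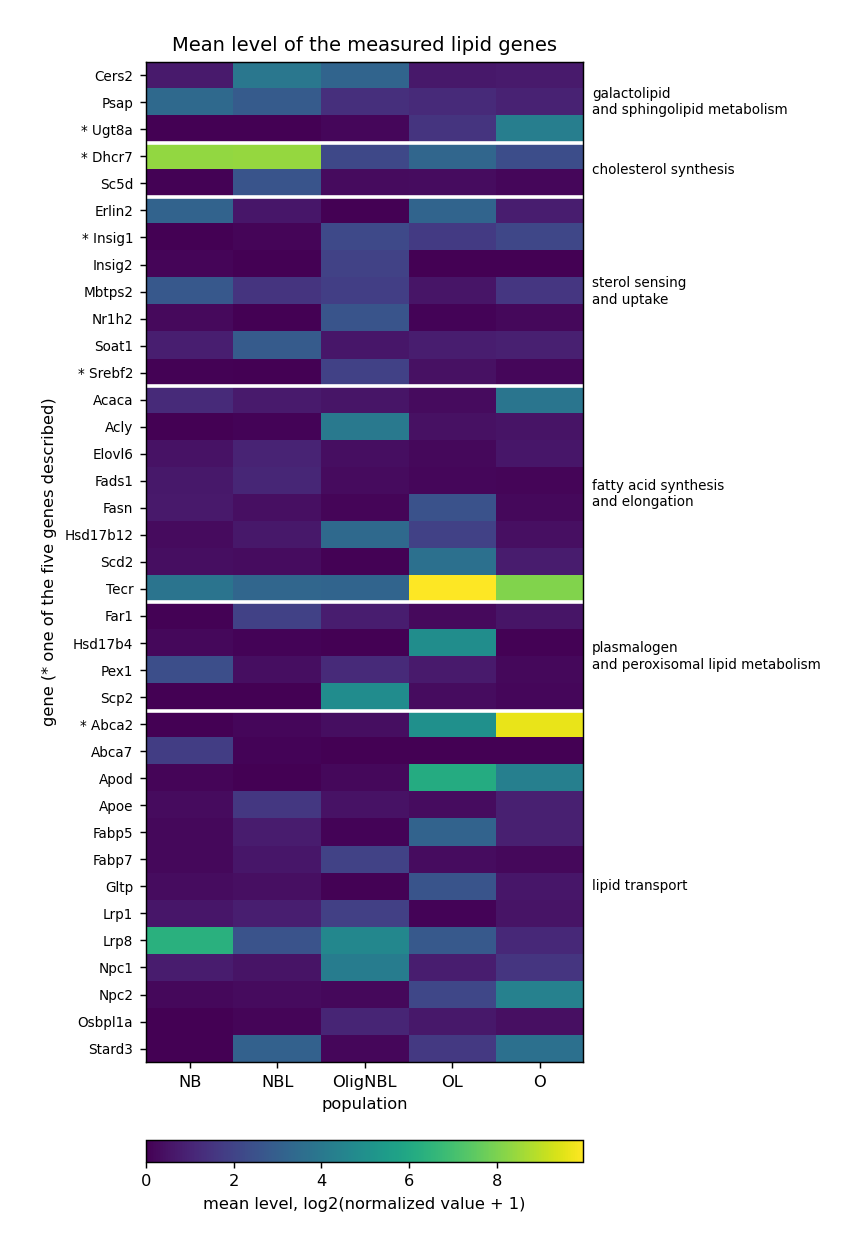
Mean level (color, log2 of the normalized value + 1) of 37 of the 38 measured lipid genes (rows, grouped by list; a star marks the 5 genes described) in the 5 populations (columns). Colors are to be compared along a row, since levels are not per length. Abca2, Apod and Tecr are brightest in OL and O, Dhcr7 in NB and NBL, and Scp2, Acly and Npc1 in OligNBL.

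Over all 38 lipid genes, 8 were higher and 8 lower in O than in NB, 10 and 6 in OL than in O, 6 and 6 in NBL than in NB, 11 and 8 in OligNBL than in NBL, and 12 and 13 in OligNBL than in OL. The share past 1 was thus 42.1%, 42.1%, 31.6%, 50% and 65.8%, beside 40.1%, 31.6%, 34.7%, 46% and 48.4% of all genes in the same comparisons.

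The genes most like each of the 5 were sought by the correlation of log2(value + 1) over all cells, among 3196 genes listed in at least 20 cells. For Dhcr7 they were Higd1a (0.90), Tmcc2 (0.90) and Smarce1-ps1 (0.85), a processed pseudogene. The likeness to Higd1a and Tmcc2 extended to the values themselves. Levels differed by at most 1 in 62 of 93 cells with Dhcr7 and Higd1a and in 63 of 92 with Dhcr7 and Tmcc2. This was not particular to Dhcr7: it held in 13 of 14 cells with Srebf2 and Lmbrd2 and 15 of 20 with Ugt8a and Map7. Not all alike pairs had it, with 16 of 77 cells for Dhcr7 and Smarce1-ps1 and 2 of 33 for Abca2 and Cfdp1. The levels of Tmcc2 were 8.84 in NB, 8.90 in NBL, 2.21 in OligNBL, 0.74 in OL and 2.50 in O, which differ from those of Dhcr7 most in OL. Higd1a, Tmcc2 and Smarce1-ps1 are on chromosomes 9, 1 and 8, and Dhcr7 is on chromosome 7.

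For Ugt8a the most alike genes were the potassium channel gene Kcna1 (0.94), Fnbp1 (0.93) and Map7 (0.92), and for Abca2 they were Cfdp1 (0.88), Spg20 (0.82) and Zfp37 (0.81). For Srebf2 they were Srgap3 (0.89), Lmbrd2 (0.88) and Hat1 (0.86). For Insig1 the highest were lower, Gpatch8 (0.63), Cenpx (0.60) and Snap23 (0.59). Over the 21 part means these correlations were 0.77 to 0.96. Such values were common in this table: the highest correlation of a gene with any other had a median of 0.77 and quartiles of 0.61 and 0.88. No lipid gene was among the 15 genes most alike.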

How the data were processed

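Polyadenylated RNA of 155 sorted cells was measured, each GEO sample being 1 cell. The submitters' processing notes name kallisto, limma and build GRCm38. No source used here gives their versions or how the 3422 genes were selected. The authors deposited estimated counts that behave as a normalized signal, with the 8 highest values the same in all cells (relative tolerance 1e-06), as after quantile normalization. In 1 NB cell tied zeros stand at 0.00585.

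Populations were taken from the labels, and doublets were not called. Levels are means of log2(value + 1), and a difference of at least 1 is past the threshold. Sets of alike cells came from average linkage on correlation at 0.4, without the lipid genes. Named genes were the 5, up to 3 each way per lipid list and comparison, of which a selection is described and 1 is not reported here, and the 3 most alike per gene. The 5 genes and all lists were chosen with earlier results of these data known. The level step was run on shuffled data with a shift added. This checks the arithmetic only, since a difference of means must rise by the shift. Alternatives covered the pseudocount, weighting of parts, cells with at least 1000 genes listed, the highest cell, the median, scaling, a gene filter, detection, the joining correlation and, chosen after seeing the data, leaving out sets that join populations; detection as a value above the lowest of the cell was also chosen then. Computation used numpy 2.4.6 and scipy 1.17.1 under Python 3.11.15, with tables in pandas 2.3.3 and plots in matplotlib 3.10.9.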

Additional observations from a re-analysis of the deposited data

Results flagged for a closer look

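Lesion differences had opposite signs in the GFP gate (NBL minus NB) and the Tomato gate (OL minus O), both past 1, for 3 lipid genes that are not among the 5. Erlin2, a protein of the endoplasmic reticulum that takes part in sterol regulation, differed by -2.55 in GFP and 2.42 in Tomato cells. Lrp8, a receptor for apolipoprotein E and reelin, differed by -3.80 and 1.65, and Stard3, a sterol carrier of late endosomes, by 3.11 and -2.01. Each of these differences was smaller than the larger SD of its 2 populations. Among all genes, 34.7% were past 1 in NBL minus NB and 31.6% in OL minus O. The share of all genes past 1 with opposite signs was not counted, so these 3 genes cannot be set against it. With 1 sample per population, the difference between the gates was not tested.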

How the results depend on the processing

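Each of the 25 differences was recomputed under 8 alternatives. Of the differences past 1, only 1 changed sign under these: Dhcr7 in OligNBL minus OL was 0.58 with parts of alike cells weighted equally. A shift beyond the root mean square of both populations' SDs, though not beyond the larger SD, was found for Insig1 in O minus NB, which was 0 with medians over cells, and for Ugt8a in NBL minus NB, which was -0.059 with a pseudocount of 0.1. A pseudocount of 10 took 6 differences below 1, medians took 4 and values scaled to a total of 1000000 took 3. Column totals were already nearly equal, so this scaling acts like a larger pseudocount and does not test library size. Parts weighted equally, cells with at least 1000 genes, the highest cell left out and joined sets left out took 1 each below 1. Differences that newly passed 1 numbered 2 with a pseudocount of 0.1, 2 with medians and 3 without joined sets. The number of genes past 1 with a pseudocount of 10 was 669 in OL minus O, 697 in NBL minus NB, 814 in OligNBL minus NBL and 942 in OligNBL minus OL, against 1080, 1187, 1573 and 1657. Part means in OligNBL minus NBL lay apart for 2 of the 5 genes with sets joined at 0.5. Of 25 shares of cells, 8 lay outside their interval when counted among the 1000 highest genes and 10 as any value above the lowest of the cell. Both ways of counting can only keep or raise a share, so the direction of these shifts was fixed in advance. The values hold no depth, so a gene listed at 0 cannot be told from a gene that was missed. No paired analysis was possible because no label pairs cells between populations and no test was made.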
